A study of Mus musculus with 6 samples.

Results

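Integrins are the receptors with which cells hold on to the extracellular matrix, and laminins are among the matrix proteins that they hold on to. The 36 genes described here code for subunits of both families, 18 integrin α and 8 integrin β subunits and 10 laminin chains of the α, β and γ classes. They were chosen by name, as protein-coding genes with an Itga, Itgb, Lama, Lamb or Lamc symbol, among the 55416 genes of the counts table. Their transcripts were measured by RNA-seq in EpiLCs, the formative cells obtained after 48 h of differentiation of mESCs. WT EpiLCs came from the parental 46C line, in which the Sox1 gene drives GFP, and KO EpiLCs came from 1 clone of that line with a homozygous insertion of a single nucleotide in Oct6 (official symbol Pou3f1), so the KO genotype and the history of this clone cannot be told apart. Both lines carry the reporter, and both were differentiated in N2B27 with KSR, bFGF and Activin A on dishes coated with fibronectin, which is itself an integrin ligand. There were 3 biological replicates per genotype, described as paired, and 6 libraries of total RNA.

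An integrin is a dimer of an α and a β subunit that spans the plasma membrane. Most integrins join the matrix outside to actin inside, through adaptors such as talin, kindlin and vinculin. A laminin is a trimer of an α, a β and a γ chain that polymerizes into the sheet of a basement membrane. In the early embryo, epiblast cells rest on a laminin-rich basement membrane and bind it through integrins with the β1 subunit.

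The counts per library ran from 10995505 to 14680930. Levels are CPM, in which edgeR divides counts by TMM-normalized library totals, and levels compared between genes are CPM per kb of exon. The epiblast markers Pou5f1, Sox2, Fgf5, Otx2, Utf1, Dnmt3b and Tdgf1 (listed as Cripto) were all well above the filter, with a summed level of 3078 to 3322 CPM in WT and 3103 to 3262 CPM in KO EpiLCs. Of these Sox2, Fgf5, Otx2 and Tdgf1 were higher in KO EpiLCs by log2 fold changes of 0.40 to 0.92 (adjusted p from 1.70e-04 to 0.0283, edgeR). This is 57.1% of the 7 markers, beside 24.3% of all genes called and 11.8% higher at an adjusted p below 0.1. Pou5f1, Dnmt3b and Utf1 were not called, with log2 fold changes of −0.19, −0.19 and −0.01. Trophoblast markers summed to at most 1.04 CPM, with Tpbpa and Prl3d1 at 0 counts. Values in single libraries are given in the order of replicates 1, 2 and 3. Oct6 itself was counted at 161, 143 and 122 CPM in WT and at 127, 141 and 128 CPM in KO EpiLCs, which overlapped (log2 fold change −0.10, adjusted p = 0.574, edgeR). Reads were counted over the whole gene, which does not tell apart transcripts with and without the insertion. In bulk RNA, fewer cells of a type and less RNA per cell cannot be told apart.

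Of the 36 subunit genes, 28 had enough counts to be tested with edgeR, and 7 of these differed between KO and WT EpiLCs at a Benjamini-Hochberg adjusted p below 0.1 in edgeR's quasi-likelihood test. This is 25% of the subunits tested, beside 24.3% of all 15746 genes tested, a share near the background and no result about the families as wholes. Itgae, Itgav, Itgb5, Lama3 and Lamb1 were higher in KO EpiLCs (11.8% of all genes tested were higher), and Itga3 and Itgb8 were lower (12.5% of all genes were lower). Itgb8 reached the minimum of the filter in 3 WT libraries and 0 KO libraries, so it was tested only through its WT level. The median log2 fold change of the 28 subunits was 0.18, and that of all genes 0.0014. Itga3, one of the most abundant integrin α subunits in WT cells, was 2.26-fold lower in KO cells, whereas the abundant subunits Itga6, Itgb1, Lama5 and Lamc1 did not pass the test. With the replicate number as a block, 10 subunits were called, beside 30.3% of all genes. Lamc1 was among these 10 (log2 fold change 0.25, adjusted p = 0.0278, edgeR), and Itga6, Itgb1 and Lama5 were not.

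**Figure D1:**
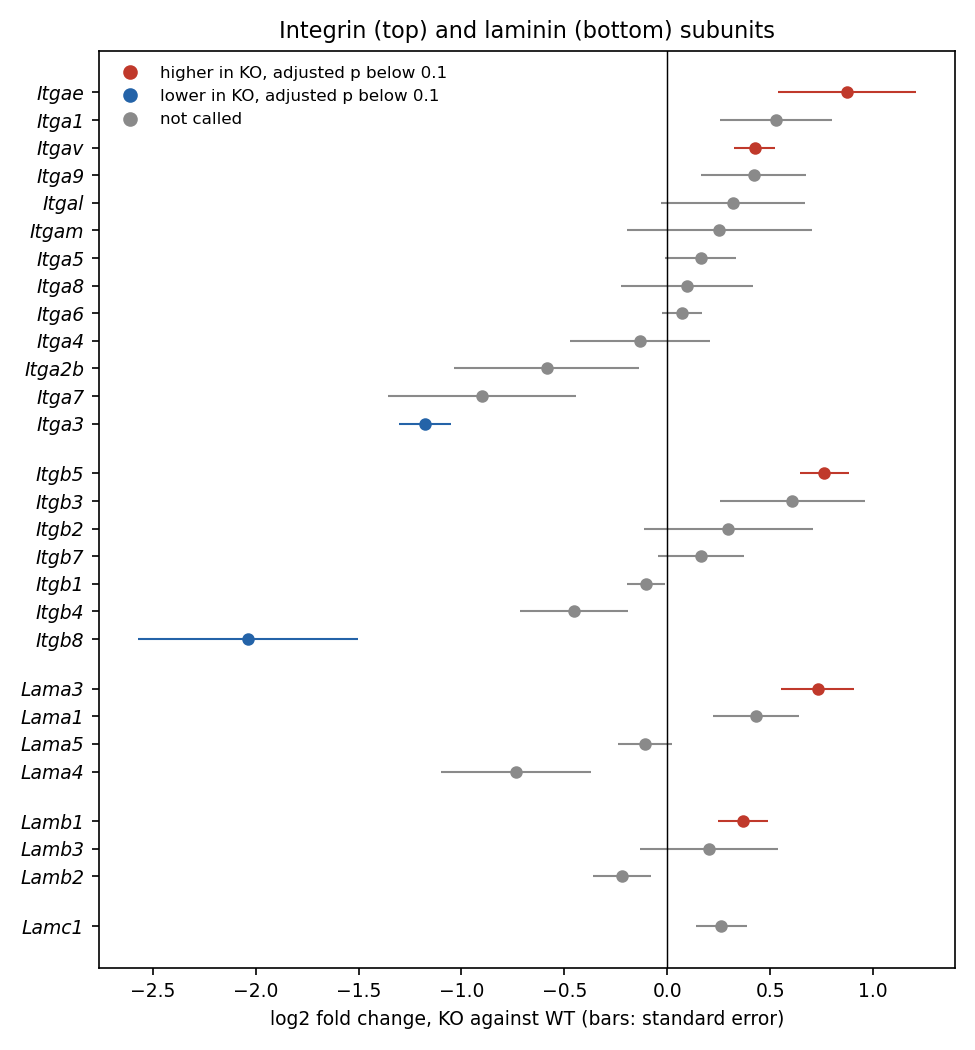
Log2 fold change of KO against WT EpiLCs for the 28 integrin and laminin subunits tested (points, horizontal axis), with bars of 1 standard error. The subunits are grouped by class, red and blue points mark the 5 higher and 2 lower subunits at an adjusted p below 0.1, and Itgb8 lies farthest from 0 at −2.04. It passed the filter on low counts through the WT libraries alone. Its value was −1.34 without WT replicate 1, where the call was lost (adjusted p = 0.118, edgeR).

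The sequences before the start sites of Itgb8 and Itgb5 are shown because these were the β subunits that passed the test, both of them partners of αv. Itgb8 is a low gene whose call rested on WT replicate 1, and Itgb5 lies on a chromosome that was shifted as a whole, as given with their values. The bases were read from the GRCm39 genome at the GENCODE M39 starts, 5′ to 3′ on the strand of the gene, from chr12:119202585-119202837 (minus strand) for Itgb8 and chr16:33649688-33649987 (plus strand) for Itgb5, cut short where another annotated exon begins. Capitals mark GC boxes, GGGCGG or its reverse complement CCGCCC.
Itgb8: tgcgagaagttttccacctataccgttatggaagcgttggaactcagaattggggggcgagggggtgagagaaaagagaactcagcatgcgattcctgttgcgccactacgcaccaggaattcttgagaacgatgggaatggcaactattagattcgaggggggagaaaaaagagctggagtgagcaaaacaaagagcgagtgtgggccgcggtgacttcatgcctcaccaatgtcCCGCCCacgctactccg
Itgb5: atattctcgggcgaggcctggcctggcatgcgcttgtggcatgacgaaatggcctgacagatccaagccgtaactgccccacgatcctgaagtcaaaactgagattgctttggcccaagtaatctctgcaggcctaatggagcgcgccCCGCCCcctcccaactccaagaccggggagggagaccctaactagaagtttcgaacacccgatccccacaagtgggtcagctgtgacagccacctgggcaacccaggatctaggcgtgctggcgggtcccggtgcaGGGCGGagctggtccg

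The stretches of Itgb8 and Itgb5 held 1 and 2 GC boxes. In the full window of 300 bases, GC boxes were present in 17 of the 36 subunit genes and in 37.7% of 21609 promoters of protein-coding genes. The octamer ATGCAAAT, the motif by which POU factors such as OCT6 are known, was searched on both strands and was found in 0 of the 36 windows, and in 1.70% of all promoters. The AP-1 motif TGANTCA was found in Itgad, Itgax and Itgb4, and in 7.40% of all promoters. These matches describe the letters of these windows only. The GC box and AP-1 motifs were added after the values had been seen.

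The α subunits help to decide which ligand an integrin binds. Per kb of exon, the highest levels among them were those of Itga6 and Itga3, which pair with β1 to bind laminins, and Itgav, whose dimers bind fibronectin, vitronectin and other proteins with an RGD motif, at 22.5, 16.7 and 5.60 CPM per kb in WT and 23.6, 7.40 and 7.51 in KO EpiLCs, where the last pair hardly differed. Itga3 (ENSMUSG00000001507.17, chromosome 11, 94935296 to 94967682) measured 116, 88.1 and 87.9 CPM in WT against 45.3, 37.0 and 46.9 CPM in KO EpiLCs. All KO values lay below the lowest WT value. The mean decreased from 97.4 ± 16.1 CPM in WT (SD, n = 3) to 43.1 ± 5.35 CPM in KO EpiLCs, that is, by a log2 fold change of −1.18 ± 0.13 (SE) with an adjusted p of 3.83e-06 in edgeR. The value stayed between −1.25 and −1.03 when any single library was left out.

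Itga6, the α subunit shared by the laminin receptors with β1 and β4, had 236, 257 and 273 CPM in the WT libraries and 264, 251 and 290 CPM in the KO libraries. The groups overlapped, and the log2 fold change was 0.07, with a 95% interval from −0.14 to 0.28 (adjusted p = 0.694, edgeR). Of the summed level of the 18 α genes per kb of exon, Itga3 made up 33.8% ± 4.55 (SD, n = 3) in WT and 16.8% ± 1.16 in KO EpiLCs, and Itga6 45.5% ± 4.32 and 53.6% ± 0.452. Shares of a sum are bound to each other, so that a fall of 1 gene raises the shares of the rest.

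Itgav (ENSMUSG00000027087.12, chromosome 2, 83554403 to 83637260) had 69.6, 64.7 and 72.8 CPM in WT and 95.4, 86.9 and 95.8 CPM in KO EpiLCs. The KO values all exceeded the WT values. Its mean rose from 69.0 ± 4.07 to 92.7 ± 5.02 CPM (SD, n = 3), 1.34-fold (log2 fold change 0.42, standard error 0.10, adjusted p = 0.00477, edgeR). Its share of the α genes per kb of exon was 11.3% ± 0.424 in WT and 17.1% ± 0.80 in KO EpiLCs. Where levels were taken per kb of coding sequence instead, Itgav made up 16.9% and 23.3%, and Itga3 22.0% and 9.94%.

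Itgae codes for the αE subunit, which pairs with β7 and binds E-cadherin. It had 1.94, 2.74 and 4.53 CPM in WT and 2.92, 6.94 and 7.15 CPM in KO EpiLCs. KO replicate 1 lay within the range of the WT libraries, although each KO library was above the WT library of the same number. The test gave a log2 fold change of 0.87 ± 0.33 (SE) with an adjusted p of 0.0779 in edgeR, and 0.86 with an adjusted p of 0.00775 with a replicate block. The call was lost with library totals alone (0.85, adjusted p = 0.10), with robust estimation (0.87, adjusted p = 0.102) and when any of 4 single libraries was left out, which gave 0.62 (adjusted p = 0.246) without WT replicate 1, 0.80 (0.172) without WT replicate 2, 0.70 (0.235) without KO replicate 2 and 0.67 (0.287) without KO replicate 3. Its partner Itgb7 had 5.75, 7.03 and 4.803 CPM in WT and 6.40, 6.71 and 6.47 CPM in KO libraries, which overlapped (log2 fold change 0.16, adjusted p = 0.656, edgeR).

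Itga5, the α subunit of the classical fibronectin receptor, was measured at 9.69 ± 0.307 CPM in WT and 10.8 ± 1.46 CPM in KO EpiLCs (SD, n = 3), and did not pass the test (log2 fold change 0.16, 95% interval −0.20 to 0.52). The ratio of Itga5 to Itga6 per kb of exon, 0.0813 ± 0.00639 in WT and 0.0863 ± 0.0103 in KO EpiLCs, differed by 0.08 on the log2 scale (exact two-sided permutation test, p = 0.50, and 0.50 after adjustment over the 3 ratios compared), where 3 against 3 libraries cannot give a p below 0.10.

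The collagen receptor subunit Itga1 had 4.40, 2.01 and 3.65 CPM in WT and 5.35, 4.40 and 4.96 CPM in KO libraries, with 1 WT library, replicate 1, just inside the KO range. Its log2 fold change of 0.53 did not pass the test (adjusted p = 0.207, edgeR), but did with the replicate number as a block (0.57, adjusted p = 0.0885). It was 0.76 (adjusted p = 0.0908) without WT replicate 1 and 0.28 (adjusted p = 0.557) without WT replicate 2, the lowest WT library. Itga9, which binds tenascin, and Itga8, which binds nephronectin, had log2 fold changes of 0.42 and 0.10 at 4.63 and 4.40 CPM in WT EpiLCs. Itga4, the partner of β1 and β7 in leukocytes, and the muscle laminin receptor subunit Itga7 had −0.13 and −0.90 at 2.32 and 1.27 CPM, and Itga2b of platelets had −0.59 at 2.09 CPM. Itga7 reached the minimum of the filter in 3 WT libraries and 1 KO library, and its KO libraries were all below the WT libraries (adjusted p = 0.198, edgeR). The leukocyte subunits Itgal and Itgam had 0.32 and 0.25 at 1.68 and 0.93 CPM. The adjusted p of these 7 genes ran from 0.198 to 0.882.

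Few counts were found on the other α subunits, none of which passed the filter. Itga10, a collagen receptor, had 4 to 16 counts per library, while the collagen receptors Itga2 and Itga11 and the leukocyte subunit Itgad had 0 to 3, and Itgax, also of leukocytes, had 0 counts in every library, where 3 counts would amount to 0.203 to 0.274 CPM. Such a floor covers counting error only. Itgam shares 67.4% of its exon bases with another gene on its strand, Gm49368, Itga10 33.5% with Gm42957, and Itga4 20.8% with Cerkl on the other strand, so that their counts are uncertain. In Itga3 and Itgav, annotated RNAs of the opposite strand cover 7.37% and 5.14% of the exon bases.

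**Figure D2:**
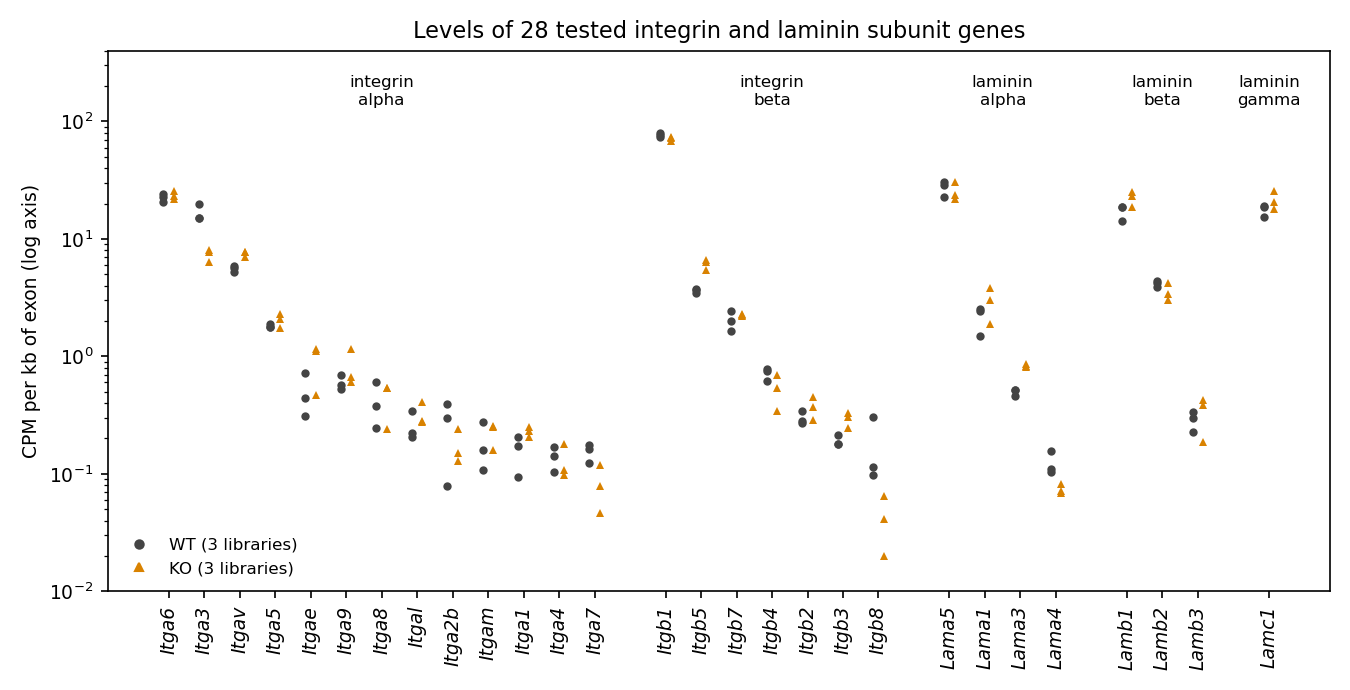
Level of the 28 tested subunits in each library, in CPM per kb of exon on a log axis, with WT libraries as grey circles and KO libraries as orange triangles. Within each class genes run from the highest to the lowest mean level. Itgb1 stands highest at 76.9 in WT and 71.5 in KO EpiLCs, and the KO points of Itga3 and Itgb8 lie below their WT points.

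The β subunits pair with the α subunits, and most of them, though not all, carry a tail to which talin and kindlin bind. Itgb1, the β subunit with the most partners, had 462, 443 and 472 CPM in WT and 441, 410 and 430 CPM in KO EpiLCs. The KO libraries were all below the WT libraries, but by little, and the difference did not pass the test (459 ± 14.8 against 427 ± 15.4 CPM, log2 fold change −0.10, 95% interval −0.30 to 0.09, adjusted p = 0.487, edgeR). Itgb1 was by far the highest β subunit, with 91.6% ± 0.597 of the summed level per kb of exon in WT and 88.2% ± 0.516 in KO EpiLCs (SD, n = 3).

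Itgb5 (ENSMUSG00000022817.16, chromosome 16, 33649988 to 33771137), which pairs with αv in a vitronectin receptor, was the next highest. It had 24.3, 26.3 and 25.8 CPM in WT and 46.4, 38.5 and 44.5 CPM in KO EpiLCs. The KO values all exceeded the WT values. The mean rose 1.70-fold, from 25.4 ± 1.05 to 43.1 ± 4.13 CPM (log2 fold change 0.76, standard error 0.12, adjusted p = 1.45e-04, edgeR). The ratio of Itgb5 to Itgb1 per kb of exon was 0.0469 ± 0.00293 in WT and 0.0853 ± 0.00521 in KO EpiLCs, a difference of 0.86 on the log2 scale that was larger than the spread of the libraries, at the smallest p that the exact permutation test can give (0.10, and 0.30 adjusted over 3 ratios). The genes tested on chromosome 16 were shifted as a whole in the KO clone, with a median log2 fold change of 0.55. Relative to this median Itgb5 was higher by 0.21, and a change of Itgb5 and the shift of its chromosome cannot be told apart.

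Itgb8 (ENSMUSG00000025321.15, chromosome 12, 119121748 to 119202584) pairs with αv in a receptor that activates latent TGF-β. It was low in all libraries, with 3.43, 1.10 and 1.29 CPM in WT and 0.729, 0.463 and 0.226 CPM in KO EpiLCs, which are 46, 12 and 19 counts and 9, 6 and 3 counts. The KO libraries were all below the WT libraries, and WT replicate 1 stood apart from the other WT libraries. Its log2 fold change of −2.04 ± 0.54 (SE) had an adjusted p of 0.0107 in edgeR, and it was −1.34 (adjusted p = 0.118) without WT replicate 1. Itgb8 reached the minimum of the filter in the 3 WT libraries and in 0 KO libraries. WT replicate 1 was also the library with the highest summed level of 7 leukocyte markers (25.2 CPM, beside 9.95 to 14.7 CPM in the other libraries). Cd68 and Laptm5 made up most of this sum in every library, with Cd68 at 13.4 CPM in WT replicate 1. Ptprc was highest in WT replicate 1 too, at 0.970 CPM or 13 counts. Spi1 was higher in WT replicate 3 (0.879 against 0.597 CPM) and Fcer1g in KO replicate 1 (0.405 against 0.224 CPM). Cd48 and Tyrobp had 0 counts in every library. The summed level of 8 fibroblast markers was also highest in WT replicate 1 (22.0 CPM, beside 9.26 to 15.8 CPM). Dcn (12.1 CPM) and Col1a2 (5.30 CPM) made up most of this sum in WT replicate 1 and were highest there. The other fibroblast markers were not highest in that library. Col1a1, Pdgfrb and Thy1 were highest in WT replicate 3, Col3a1 and Postn in WT replicate 2 and Lum in KO replicate 3. Col1a1 had 0 counts in WT replicate 1. The part of the leukocyte and fibroblast markers in the result was not tested.

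The remaining β subunits did not pass the test. Itgb3, which pairs with αv, had 1.19, 1.19 and 1.42 CPM in WT and 2.03, 1.62 and 2.18 CPM in KO libraries, with all KO values above the WT values (log2 fold change 0.61, adjusted p = 0.268, edgeR). Itgb4, the partner of α6 in hemidesmosomes, had 5.15 ± 0.603 CPM in WT and 3.77 ± 1.25 CPM in KO EpiLCs (−0.45, adjusted p = 0.267), and 14.9% of its exon bases are shared with Galk1 on the other strand. Itgb2, the β subunit of leukocytes, had 0.97 ± 0.13 and 1.196 ± 0.266 CPM (0.30, adjusted p = 0.691). Itgb6, found on epithelia, had at most 1 count per library and was not tested.

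**Figure D3:**
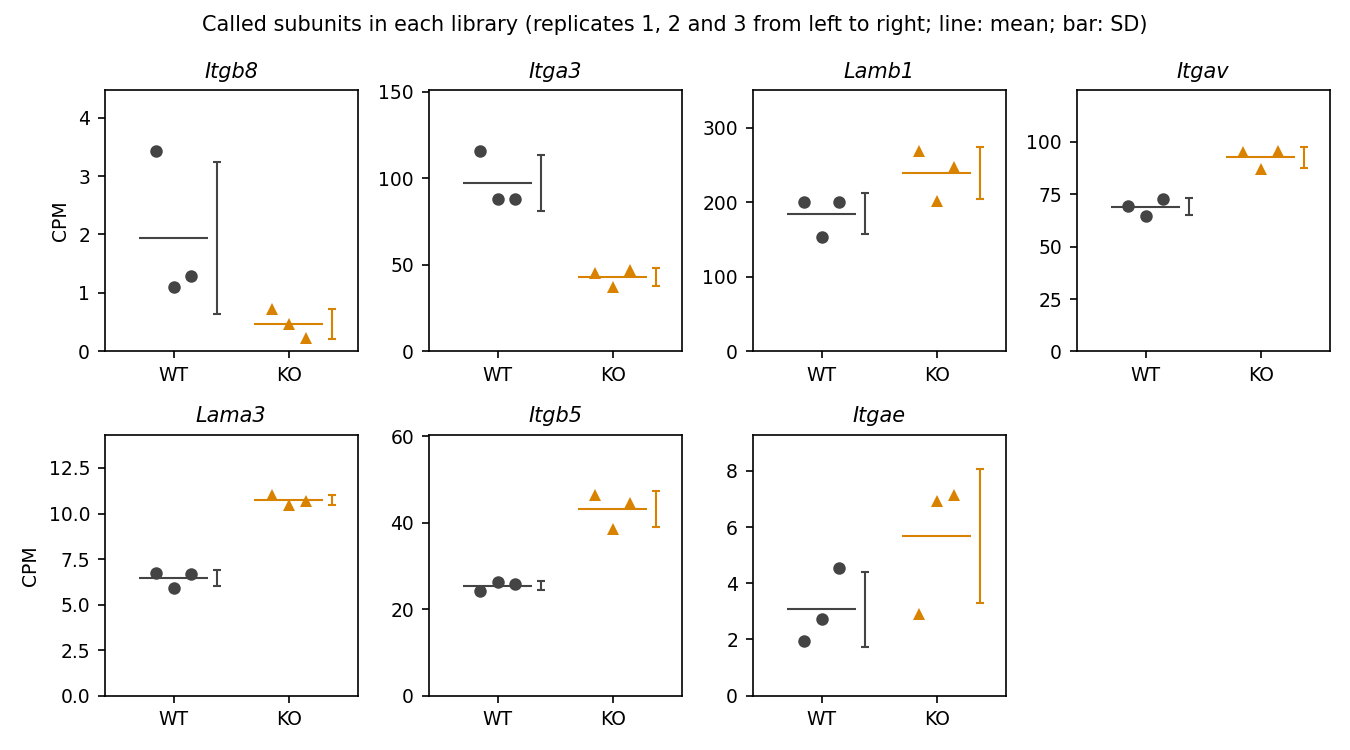
CPM of the 7 subunits with an adjusted p below 0.1 in each library, on linear axes from 0, with WT replicates as grey circles, KO replicates as orange triangles, horizontal lines at the means and bars of 1 SD beside them. The panels were chosen by the test on these same libraries, so that groups lying apart add no support. The uncalled Itga7, Itgb1, Itgb3 and Lama4, not shown here, were apart too. The groups overlap for Itgae, and in Itgb8 WT replicate 1 lies at 3.43 CPM above the other WT libraries.

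Laminins are the ligands of several of these receptors. Per kb of exon the highest chains were Lama5, Lamc1 and Lamb1, which can make up a trimer together and are found in the basement membrane of the early embryo. Their levels were 27.2, 17.8 and 17.2 CPM per kb in WT and 25.3, 21.3 and 22.3 in KO EpiLCs. Within each genotype, the levels of Lamc1 and Lamb1 did not differ from each other beyond their spread. Per kb of coding sequence the order was Lamc1, Lamb1 and Lama5, with 44.5, 36.4 and 27.0 CPM per kb over all libraries. Lama5 had 351, 258 and 327 CPM in WT and 268, 249 and 351 CPM in KO EpiLCs. The groups overlapped over nearly their whole range, and the log2 fold change was −0.11 (95% interval −0.38 to 0.16, adjusted p = 0.633, edgeR). Lama1, an α chain of laminins of the early embryo, was lower, with 23.5, 14.5 and 24.5 CPM in WT and 29.2, 18.4 and 37.0 CPM in KO libraries. Each KO library was above the WT library of its number, but the groups overlapped. The log2 fold change of Lama1 was 0.43 (standard error 0.21, adjusted p = 0.178, edgeR). It passed the test with the replicate block (0.42, adjusted p = 0.011), without a filter on low counts (0.42, adjusted p = 0.0336) and without KO replicate 2 (0.66, adjusted p = 0.0181). It was 0.23 (adjusted p = 0.523) without WT replicate 2 and 0.18 (adjusted p = 0.655) without KO replicate 3, and had an adjusted p of 0.492 in DESeq2.

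The ratio of Lama1 to Lama5 per kb of exon was 0.0789, 0.0663 and 0.0883 in WT and 0.128, 0.0870 and 0.124 in KO EpiLCs. Each KO ratio was above the WT ratio of its number, and the lowest KO ratio lay just under the highest WT ratio. The difference of 0.53 on the log2 scale had an exact two-sided permutation p of 0.20 (0.30 adjusted over 3 ratios). With the libraries paired by number, the exact permutation p was 0.25, the smallest that 3 pairs can give.

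Lama3 (ENSMUSG00000024421.17), the α chain of the epithelial laminin that anchors skin to its basement membrane, had 6.72, 5.93 and 6.70 CPM in WT and 11.02, 10.5 and 10.7 CPM in KO EpiLCs. The KO values all exceeded the WT values, with little spread within either group. The mean rose 1.66-fold, from 6.45 ± 0.448 to 10.7 ± 0.267 CPM (log2 fold change 0.73, standard error 0.18, adjusted p = 0.00606, edgeR). A processed pseudogene, Gm29201, shares 3.26% of its exon bases. Lama4, an α chain of blood vessels, had 1.94 ± 0.434 CPM in WT and 1.17 ± 0.114 CPM in KO EpiLCs, with the KO libraries all below the WT libraries (−0.74, adjusted p = 0.184, edgeR). Lama2, the α chain of muscle laminin, had 0 to 9 counts and was not tested.

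Lamb1 (ENSMUSG00000002900.18, chromosome 12, 31315030 to 31379658), the β chain of most embryonic laminins, had 201, 153 and 201 CPM in WT and 269, 202 and 247 CPM in KO EpiLCs. All KO libraries were above all WT libraries, though KO replicate 2 hardly so. The mean rose from 185 ± 27.5 to 239 ± 34.5 CPM (log2 fold change 0.37, standard error 0.12, adjusted p = 0.0387, edgeR). The value was 0.25 (adjusted p = 0.18) without WT replicate 2, 0.27 (0.208) without KO replicate 1 and 0.35 (0.122) without KO replicate 3, and it passed the test when each of the other libraries was left out in turn. Gm61290 and Dld share 4.79% and 2.83% of its exon bases.

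Markers of extraembryonic endoderm, a cell type that produces laminins and type IV collagen in quantity, were examined beside these values. The summed level of 12 such markers was 10.1 to 16.2 CPM in WT and 16.5 to 41.9 CPM in KO libraries, which did not overlap. Cubn made up most of the sum in every KO library, with 7.16, 3.19 and 3.72 CPM in WT and 21.9, 9.41 and 22.5 CPM in KO EpiLCs. Without Cubn the sums of the groups overlapped. Of the 5 of these genes tested, 3 were called, all higher in KO EpiLCs (60% beside 24.3% called and 11.8% higher among all genes). They were Cubn, Gata6 and Pdgfra, with log2 fold changes of 1.92, 1.35 and 0.94 (adjusted p = 1.47e-04, 0.0121 and 0.0991, edgeR). The groups overlapped for Pdgfra, and Sox17 and Dab2 did not pass the test (adjusted p = 0.315 and 0.601). Ttr had 0 counts in every library, and Sox7 and Thbd had at most 3 counts. In both groups replicate 2 had the lowest sum of these markers, 10.1 CPM in WT and 16.5 CPM in KO EpiLCs, and also the lowest level of Lamb1, Lamc1 and Lama1. Lama5, which was not called, was lowest in replicate 2 too. The highest KO sum was in replicate 3, as were Lamc1, Lama1 and Lama5, whereas Lamb1 was highest in replicate 1. The highest WT sum was in replicate 1, as was Lama5, whereas Lamc1 and Lama1 were highest in replicate 3. The part of these markers in the results on laminins was not tested.

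Lamb2, the β chain of mature basement membranes such as that of the kidney glomerulus, had 25.2 ± 1.52 CPM in WT and 21.7 ± 3.72 CPM in KO EpiLCs (log2 fold change −0.22, adjusted p = 0.318, edgeR). Lamb3, the β chain that joins Lama3 in the epithelial laminin, had 2.37 ± 0.461 and 2.73 ± 1.04 CPM (0.20, adjusted p = 0.747). Of the 3 β chains per kb of exon, Lamb1 made up 79.4% in WT and 85.1% in KO EpiLCs.

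Lamc1, the γ chain of most laminins, had 212, 175 and 217 CPM in WT and 233, 202 and 289 CPM in KO libraries. The groups overlapped, and its log2 fold change of 0.26 did not pass the test (standard error 0.12, adjusted p = 0.156, edgeR). It did with the replicate block (0.25, adjusted p = 0.0278). It was 0.38 (adjusted p = 0.0496) without KO replicate 2, 0.17 (0.437) without WT replicate 2 and 0.11 (0.617) without KO replicate 3. Lamc3 had 4 to 12 counts per library and was not tested. The chains of the trimer of Lama5, Lamb1 and Lamc1 had log2 fold changes of −0.11, 0.37 and 0.26, and Lamb1 alone passed the test without a block.

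Other genes of matrix adhesion, in 5 lists, were examined in the same test. Among 28 adaptors and activators on the inner side of integrins, 25 were tested, 2 were higher and 4 lower in KO EpiLCs, or 24% beside 24.3% of all genes, with a median log2 fold change of −0.09. Zyx, zyxin of focal adhesions and stress fibres, had 19.7, 9.22 and 9.27 CPM in WT and 4.94, 3.47 and 4.89 CPM in KO EpiLCs, with the groups apart and WT replicate 1 well above the other WT libraries. Its log2 fold change was −1.52 (adjusted p = 4.97e-04, edgeR), and −1.06 (0.00336) without WT replicate 1. The genes of its chromosome, 6, had a median of −0.40 in the KO clone, and the difference of Zyx from this median was −1.12.

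Vcl, vinculin, which links talin to actin, had 206, 224 and 212 CPM in WT and 143, 127 and 141 CPM in KO EpiLCs. The groups were apart, with a log2 fold change of −0.64 (adjusted p = 1.04e-04, edgeR). Parva, parvin α of the complex with the kinase-like protein ILK, had 2.79 ± 0.693 CPM in WT and 1.45 ± 0.198 CPM in KO EpiLCs (−0.95, adjusted p = 0.0528), a call that was lost without KO replicates 2 (−0.85, 0.155) or 3 (−0.98, 0.111), or WT replicates 1 (−0.89, 0.118) or 3 (−0.81, 0.183). Fermt1, a kindlin that activates integrins, and Ptk2b, a kinase related to focal adhesion kinase, were higher by log2 fold changes of 0.88 (adjusted p = 2.14e-04) and 0.72 (adjusted p = 0.00377, edgeR). Ilk itself was lower (−0.42, adjusted p = 0.0623), but not without WT replicate 1 (−0.30, 0.239), WT replicate 2 (−0.38, 0.156) or KO replicate 3 (−0.31, 0.254). The actin crosslinker Actn4 had the highest mean level on this list per kb of exon over all libraries, with 24.0 CPM per kb in WT, where Vcl had 25.0, and 22.5 in KO EpiLCs (log2 fold change −0.09, adjusted p = 0.594).

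Of 14 integrin ligands other than laminins and collagens, 9 were tested, 1 was higher and 3 were lower (44.4% beside 24.3%), with a median of −0.24. Fn1, fibronectin, had 99.3, 84.6 and 97.1 CPM in WT and 140, 118 and 156 CPM in KO EpiLCs. The KO values all exceeded the WT values (log2 fold change 0.56, adjusted p = 0.00147, edgeR). Spp1, osteopontin, which binds αv integrins, had 15.3 CPM per kb of exon in WT and 10.02 in KO EpiLCs, beside 14.5 and 10.8 for Mfge8, and was lower by a log2 fold change of −0.61 (adjusted p = 0.00569). Ccn1, a matricellular ligand of αv and α6 integrins, was lower too (−0.64, adjusted p = 0.0325), but not without KO replicate 2 (−0.48, 0.157) or WT replicate 3 (−0.53, 0.134), and so was Mfge8, which binds αv dimers (−0.42, adjusted p = 0.0107). The vitronectin gene Vtn had 0 counts in every library.

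Among 11 basement membrane partners of laminins, 8 were tested, 1 was higher and 1 lower (25% beside 24.3%), with a median of 0.24. Col4a1, a chain of type IV collagen, had 60.2, 51.8 and 74.2 CPM in WT and 80.5, 77.4 and 116 CPM in KO libraries, which did not overlap. Its log2 fold change was 0.55 (adjusted p = 0.0113, edgeR), and 0.34 (0.116) without KO replicate 3, which was also the library with the most counts of extraembryonic endoderm markers (41.9 CPM). The part of these markers in the results for Col4a1 and Fn1 was not tested. The proteoglycan agrin, Agrn, was lower (−0.33, adjusted p = 0.0441), but not without KO replicates 1 (−0.30, 0.15) or 2 (−0.26, 0.20), or WT replicates 1 (−0.30, 0.116) or 3 (−0.28, 0.134). Col18a1, the collagen with the highest level of the list, had 98.7 CPM per kb of exon in WT and 107 in KO EpiLCs (0.11, adjusted p = 0.505).

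All 7 laminin receptors other than integrins were tested, 2 were higher and 2 lower (57.1% beside 24.3%), with a median of −0.02. The syndecans Sdc2 and Sdc4, proteoglycans of the cell surface, were higher by 0.73 (adjusted p = 0.00521) and 0.44 (adjusted p = 0.017, edgeR), the latter not without KO replicate 1 (0.30, 0.143). Bcam, the Lutheran receptor of the laminin α5 chain, and dystroglycan, Dag1, were lower, with log2 fold changes of −0.50 (adjusted p = 0.00202) and −0.32 (adjusted p = 0.0455, edgeR). The call of Dag1 was lost without KO replicate 1 (−0.28, 0.164), WT replicate 2 (−0.28, 0.127) or KO replicate 2 (−0.24, 0.218). Rpsa, a ribosomal protein that is also called a laminin receptor, had the highest level, 585 CPM per kb of exon in WT and 577 in KO EpiLCs.

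Of 7 membrane partners of integrins, 6 were tested, 1 was higher and 1 lower (33.3% beside 24.3%), with a median of −0.15. Cd47, the integrin-associated protein, was higher by 0.75 (adjusted p = 0.00344, edgeR), but it lies on chromosome 16, and relative to the median of that chromosome the difference was 0.20. The tetraspanin Cd63 was lower (−0.50, adjusted p = 0.0224), but not without WT replicate 2 (−0.42, 0.104). Cd9, also a tetraspanin, had the highest level, with 68.7 and 62.6 CPM per kb of exon (−0.13, adjusted p = 0.422). It lies on chromosome 6, and relative to the median of that chromosome, −0.40, the difference of Cd9 was 0.27. Ilk, Mfge8, Agrn, Bcam, Dag1 and Sdc4 are named because the counts they belong to are small, and were chosen after their values had been seen.

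**Figure D4:**
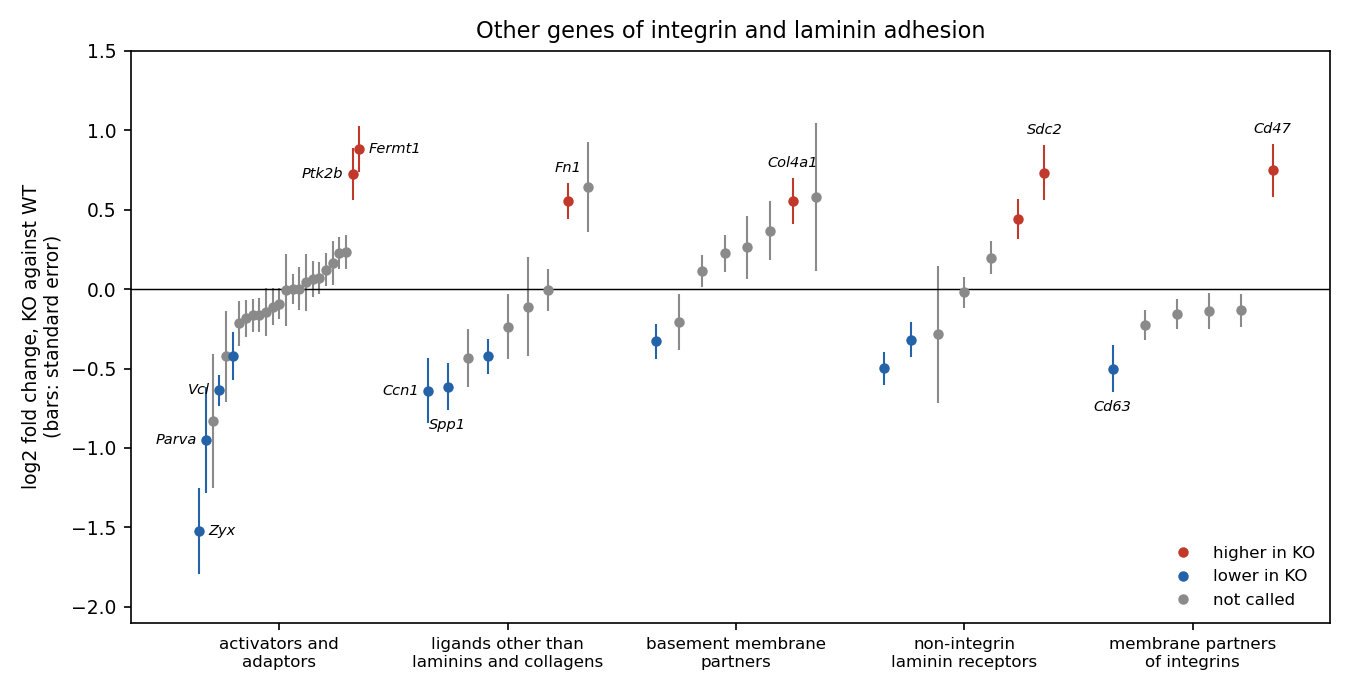
Log2 fold change of KO against WT EpiLCs (vertical axis) for the tested genes of the 5 lists of matrix adhesion (horizontal axis, sorted by value within a list), with bars of 1 standard error. Red and blue points mark genes higher or lower at an adjusted p below 0.1, labelled where the log2 fold change is at least 0.5 in size. Zyx lies lowest at −1.52 and Fermt1 highest at 0.88.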

How the data were processed

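Total RNA of 3 WT and 3 KO EpiLC samples was sequenced with a stranded kit. The authors mapped the reads to GRCm39 with STAR and deposited raw counts per gene. Release of the annotation, strand setting and treatment of reads with several matches are not given in the sources used here. GENCODE M39 matched 54749 of 55416 identifiers, and the rest held 0.0602% of the counts.

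Counts were tested in R 4.3.3 with edgeR 4.0.16 (TMM, filterByExpr with a minimum count of 10, quasi-likelihood test on genotype without a block, Benjamini-Hochberg adjustment over 15746 genes). A single count was worth 0.0676 to 0.0913 CPM. No library repeated another of its group (chi-square per degree of freedom 6.31 to 10.6). P-values measure the spread between cultures of 1 line and 1 clone.

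The series describes its replicates as paired. Over 13228 genes, which are not independent, same-numbered libraries deviated together (r of 0.253, 0.302 and 0.124) and differently numbered ones did not (−0.228 to −0.0386). The replicate block was therefore run as an alternative, beside DESeq2 1.42.0, other scalings, other filters, robust estimation, a stricter threshold, subtraction of chromosome medians, coding length for ratios and single libraries left out.

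Members and lists were chosen with earlier results of these data known. Some items are not reported here, and the counts leave them out. The subunits described are all named, with every library's value for those called and the 3 highest of integrin α, integrin β and laminin. Lists give called genes of at least 0.5 in absolute log2 fold change, at most 4 a direction, and the highest gene. Promoters are the 300 bases before the canonical start, and annotated exons within them are not printed.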

Additional observations from a re-analysis of the deposited data

How the results depend on the processing

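Every called subunit kept its direction under every alternative run. Of 413 alternative values of single subunits, 389 stayed the same, 10 lost the call, 7 gained it, 6 changed sign and 1 moved. Staying the same means that direction and side of the threshold were kept. The 28 values after subtraction of chromosome medians have no adjusted p, and were compared with the spread between replicates instead. Of these, 27 shifted by less than this spread, and Itgb5 (0.21) moved by more. The replicate block gave 10 called subunits in place of 7, with 8 higher in place of 5 (beside 2357 of 15746 genes higher, and 30.3% of all genes called, with the block), by adding Itga1, Lama1 and Lamc1, and changed the call of no other subunit. On the lists it called 8 adaptors in place of 6, 6 ligands in place of 4, 3 basement membrane partners in place of 2, 3 membrane partners in place of 2 and 4 laminin receptors as without it. Leaving out single libraries gave 3 to 6 higher and 1 to 2 lower subunits, 1 to 2 called basement membrane partners, 2 to 4 called laminin receptors and 1 to 4 called membrane partners. In these runs 18.9% to 23.4% of all genes were called and 8.86% to 11.9% were higher. The genes lower in these runs numbered 1574 to 1860, of 16098 to 16206 tested. Among subunits that did not pass the test, Itga4 ran from −0.45 to 0.039, Itga8 from −0.15 to 0.48 and Lamb3 from −0.011 to 0.48 when single libraries were left out. Over all genes DESeq2 called 3506, the block 4764 and single libraries left out 3058 to 3790, beside 3833. A filter at an average log2 CPM of at least 1 left 21 of the 28 subunits, with 1 lower in place of 2, since Itgb8 has no value there. With levels per kb of coding sequence, the WT ratio was 0.0428 for Itga5 to Itga6 and 0.0518 for Itgb5 to Itgb1. Subunits under 5 CPM in both groups had standard errors of 0.27 or more on the log2 scale, so that small changes of low subunits were not detectable at this depth. The causes of these changes were not tested.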
